A study of Homo sapiens with 18 samples.

Results

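The 8 secreted factors of B cells described here were followed through 2 mantle cell lymphoma lines: the chemokines CCL3, CCL4 and CCL22, the tumour necrosis factor (TNF) family ligands TNF, LTA and LTB, and the cytokines IL10 and TGFB1. They were chosen by name, as rows of both deposited expression tables, and are 8 of the 25369 genes that each table lists. CCL22 and TGFB1 changed with treatment in both lines. CCL4 could be tested in JEKO1 and did not pass there, and in MAVER it was lower with IB on few reads. CCL3 and IL10 also rested on few reads, and TNF, LTA and LTB could not be judged.

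Chemokines are small secreted proteins that draw leukocytes along a gradient. B cells make CCL3 and CCL4 after B cell receptor engagement, while CCL22 acts on CCR4 and attracts regulatory and helper T cells. TNF and lymphotoxin alpha (LTA) are trimeric ligands, lymphotoxin beta (LTB) anchors LTA at the cell surface, IL10 signals through JAK1, TYK2 and STAT3, and TGFB1 is secreted in a latent form that must be released before it binds its receptors.

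The libraries came from the human lines JEKO1 and MAVER after 6 h of treatment, with 3 libraries lettered A, B and C in each of 6 groups. JEKO1 was given DMSO, the solvent, or IB. MAVER was given DMSO, IB, KPT or PU. IB is taken here to mean ibrutinib at 0.4 µM, which blocks BTK, a kinase of B cell receptor signalling. KPT is taken to mean selinexor at 1.5 µM, which blocks export of proteins from the nucleus by XPO1. PU and its dose are not defined in the sources used here. No knockout or transgene is named for any group, and each line is a single tumour line in culture, so libraries of a group repeat the treatment and not the patient. The labels call the replicates biological without saying how cultures were kept apart, so the p-values measure only the spread between these libraries.

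Recovered depth ran from 5374226 to 17040599 reads per library, and the MAVER KPT libraries were the shallowest at 5374226 to 7924550. All 6 B cell markers found and all 3 mantle cell lymphoma markers averaged 10 or more normalized counts in every group. No T cell marker of 7 and no NK cell marker of 5 did. Of 7 monocyte and macrophage markers, CD68 and ITGAM did so in some groups, and FCGR3A and CD163 were listed at 0 throughout. RNA45S5, the ribosomal RNA precursor, was high in KPT replicates A and C and JEKO1 DMSO replicate C, at 53819 to 66933 normalized counts, and the KPT results for CCL22 and TGFB1 were also computed without KPT A and C.

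With IB, CCL22 rose in JEKO1 and fell in MAVER, and TGFB1 rose in JEKO1 and was not called in MAVER. Exchanged JEKO1 labels and opposite responses of the lines cannot be told apart here, so the JEKO1 groups are named as labelled and each JEKO1 direction holds only for those labels.

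Values are normalized counts, that is, the reads of a gene after scaling by a single factor for its library. A gene was tested where it averaged 10 or more across the libraries of a table, which 3 of the 8 genes reached in JEKO1 (CCL4, CCL22 and TGFB1) and 2 in MAVER (CCL22 and TGFB1). Differences are on the scale of log2(normalized count + 1), from limma with Benjamini-Hochberg adjustment over all genes tested, and a gene was called at an adjusted p under 0.05. In JEKO1, 2 of the 3 genes tested rose with IB, against 42% of all genes called in either direction and 21.9% called higher. In MAVER, 1 of 2 fell with IB (19.8% of all genes called, 9.65% lower), 1 of 2 fell with KPT (55.9% called, 28.5% lower) and 1 of 2 fell with PU (55.1% called, 27.5% lower). With so few genes tested, these shares say little beyond the single genes. The 3 MAVER comparisons share the same DMSO libraries. Counted over all 8 genes, filter or not, the IB and DMSO libraries did not overlap for 4 in JEKO1 (CCL3, CCL22, IL10 and TGFB1, all higher), against 50.2% of the genes tested. In MAVER the libraries did not overlap for 3 with IB (CCL3, CCL4 and CCL22, all lower, against 33.8%), for 3 with KPT (CCL4 and CCL22 lower, TGFB1 higher, against 60.4%) and for 1 with PU (TGFB1, lower, against 61.2%). These shares cover only genes past the filter. The 8 include genes below it and genes at 0 in every library, which always overlap, so counts and shares are not on equal terms.

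**Figure D1:**
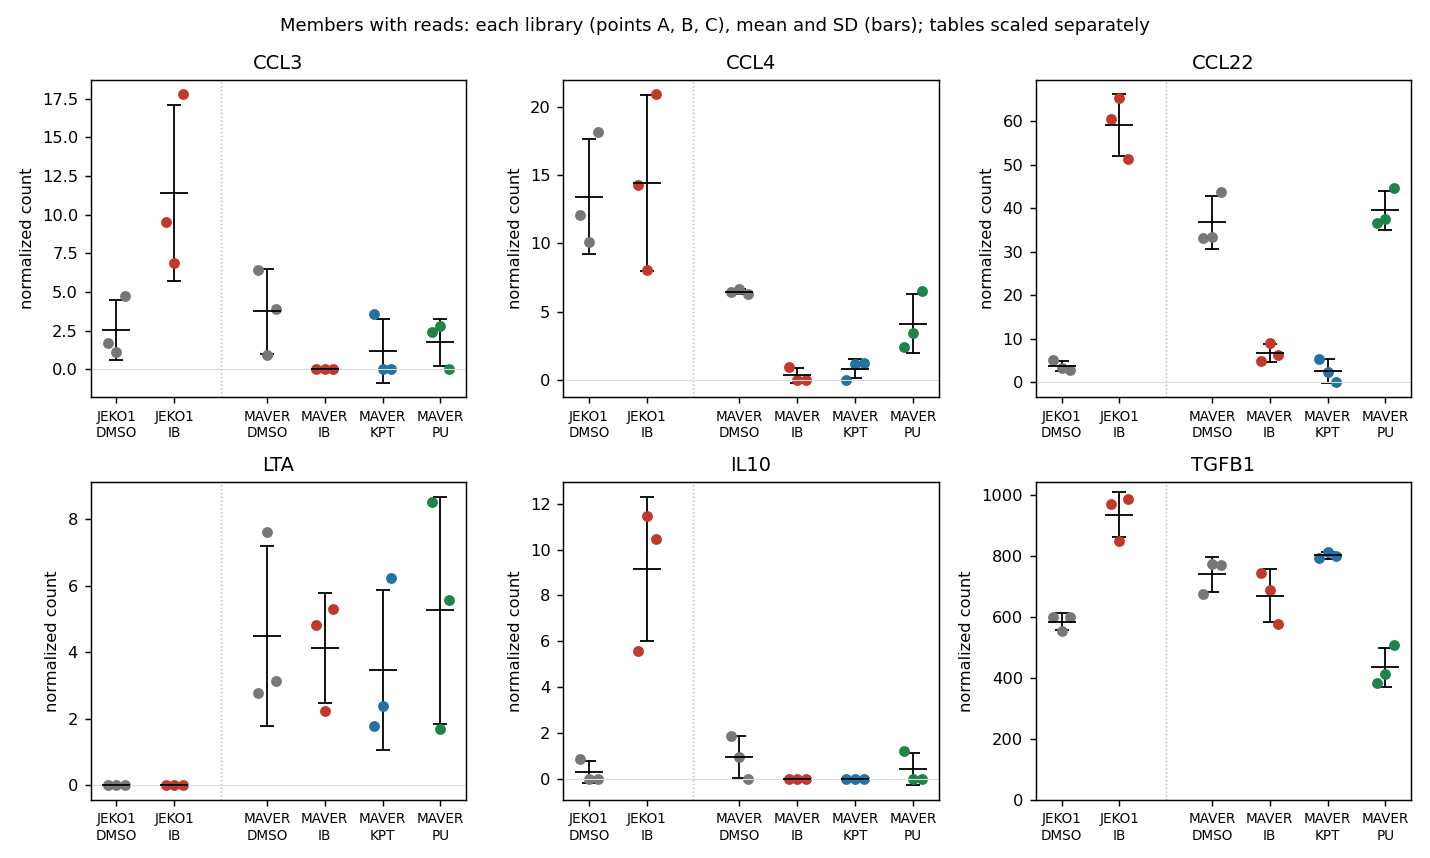
Normalized counts of the 6 genes with reads, by group on the horizontal axis, with each library as a point and the group mean ± SD as black bars. The tables were scaled separately, so the vertical axis should be read within a line. CCL22 reaches 51.3 to 65.4 in JEKO1 with IB against 2.86 to 5.17 with DMSO, and TGFB1 is lowest in MAVER with PU at 384 to 507.

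CCL22, the ligand of CCR4, rose in JEKO1 with IB and fell in MAVER with IB and KPT. In JEKO1 it stood at 5.17, 3.35 and 2.86 normalized counts with DMSO and at 60.4, 65.4 and 51.3 with IB. Every IB library lay above every DMSO library. The difference was 3.67 ± 0.30 (SE, n = 3 per group, limma adjusted p = 5.86e-09), and the pooled reads, 182 against 12, gave a ratio of 15.2 (95% counting interval 8.52 to 30.0). Intervals on reads cover counting error only. In RNA from whole cultures, a change in the number of cells that make a transcript and a change in RNA per cell cannot be told apart. The gene passed the filter in JEKO1 through its IB libraries, since the DMSO mean was 3.80 ± 1.22 (SD, n = 3).

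In MAVER, CCL22 stood at 33.2, 33.3 and 43.8 with DMSO, at 4.82, 8.94 and 6.37 with IB, at 5.38, 2.38 and 0 with KPT, and at 36.5, 37.4 and 44.7 with PU. The IB and KPT libraries all lay under the DMSO libraries, and the PU libraries overlapped them. Here the filter was passed through the DMSO and PU libraries. The difference from DMSO was -2.32 ± 0.42 with IB (SE, n = 3 per group, limma adjusted p = 4.29e-05) and -3.75 ± 0.42 with KPT (limma adjusted p = 6.07e-10). As ratios of pooled reads, DMSO was 5.63 times IB (95% counting interval 3.46 to 9.65) and 16.4 times KPT (6.84 to 51.3), the latter resting on 5 KPT reads. With KPT replicate B alone, taken to vary like the other groups, the KPT difference was -3.47 (limma adjusted p = 8.74e-09).

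PU left CCL22 within the DMSO spread, at a difference of 0.11 ± 0.42 (95% interval -0.74 to 0.96, limma adjusted p = 0.848). The CCL22 levels in MAVER thus ran, from low to high, KPT, IB, DMSO and PU. PU and DMSO did not differ beyond their spread, and PU was above IB by 2.42 (limma adjusted p = 5.16e-06, where 55.1% of genes were called) and above KPT by 3.86 (limma adjusted p = 2.87e-10, where 57% were called). KPT was lower than IB by a difference of -1.44 ± 0.42 (limma adjusted p = 0.00375, where 55.2% were called), but their libraries overlapped. That last call was lost with edgeR on recovered reads (adjusted p = 0.0600), with DESeq2 (0.0826), with KPT and IB fitted alone (0.0704) and without KPT replicate C, where the limma difference was -0.70 (adjusted p = 0.0962).

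The response of CCL22 to IB differed between the lines. The JEKO1 difference minus the MAVER difference was 5.98 ± 0.43 (SE, 12 libraries, limma adjusted p = 1.14e-11, where 41.3% of genes were called). Both genes tested for this contrast, CCL22 and TGFB1, were called, CCL22 having passed the filter through the libraries in which it was high. Without a filter on low counts, edgeR also called this difference for CCL3, CCL4 and IL10 (adjusted p = 6.09e-05, 0.00145 and 0.00700, where 30.4% of genes were called), but the IL10 call was lost without MAVER DMSO replicate A (0.103). The monocyte and macrophage list, whose cells are also known to secrete CCL22, summed to 27.6 to 39.1 normalized counts in MAVER DMSO, 19.1 to 22.3 with IB, 33.3 to 44.9 with KPT and 31.6 to 38.5 with PU. In JEKO1 the sum ran from 17.2 to 24.6 with DMSO and 17.8 to 36.7 with IB. Its members did not move together there. CD14 averaged 6.62 with DMSO and 0.26 with IB, and CD68 averaged 10.9 and 20.1. The part of these markers in the chemokine values was not tested.

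Promoter sequence was read for the genes whose levels moved, from RefSeq windows of GRCh38.p14, a build other than the hg19 of the expression tables. RefSeq windows matched 7 of the 8 genes, CCL4 being the exception. The 250 bases before the CCL22 start are shown because, of the members past the filter, CCL22 had the largest limma difference, on the plus strand at chr16:57358533-57358782, with capitals for matches to the NF-kB motif.
CCL22: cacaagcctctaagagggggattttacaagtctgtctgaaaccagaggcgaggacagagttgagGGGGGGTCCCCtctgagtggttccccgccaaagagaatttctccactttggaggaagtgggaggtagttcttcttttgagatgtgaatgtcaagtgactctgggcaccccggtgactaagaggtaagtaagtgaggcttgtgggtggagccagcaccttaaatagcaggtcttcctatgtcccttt
The capitals hold 2 overlapping matches, which begin 186 and 185 bases before the start. An NF-kB match lay in 9.96% of 35116 such windows over all genes, both strands searched. No match to the AP-1 motif TGANTCA, the NFAT core GGAAA, the GC box GGGCGG or the EGR motif GCGNGGGCG lay in this window, against 6.57%, 55.6%, 42.6% and 8.41% of all windows. A match is only a run of letters and no factor binding was measured.

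**Figure D2:**
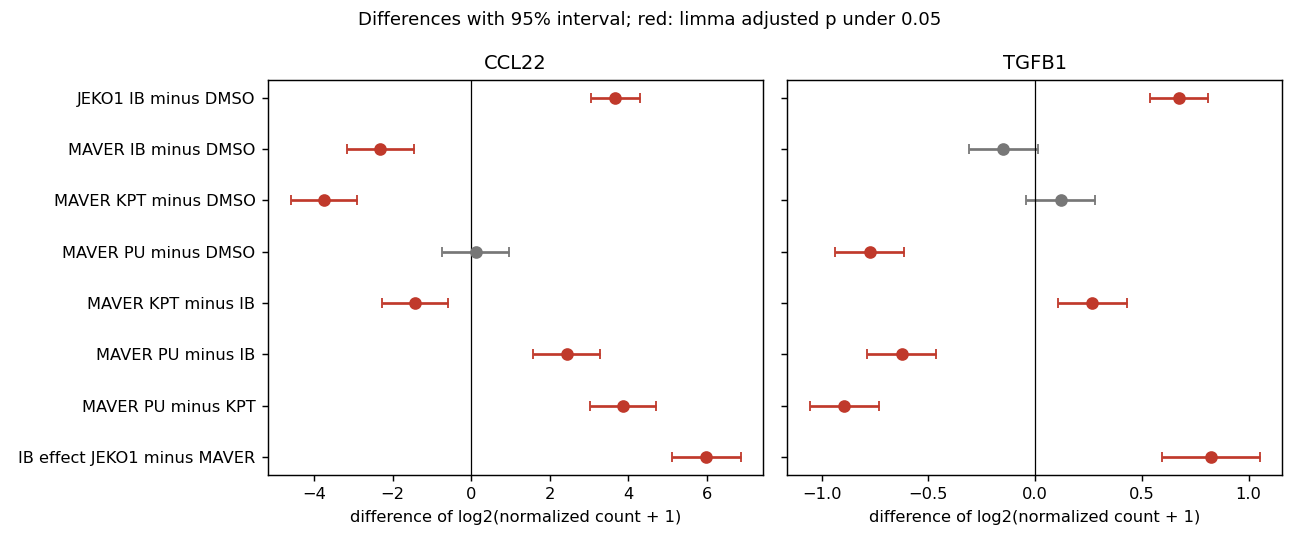
Differences of log2(normalized count + 1) for CCL22 (left) and TGFB1 (right) in all 8 comparisons, with 95% intervals, red where the limma adjusted p was under 0.05. For CCL22 the JEKO1 IB difference is 3.67 and the MAVER IB difference is -2.32, and for TGFB1 the MAVER PU difference is -0.77.

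CCL3, also called MIP-1 alpha, was below the filter in both tables, so its values rest on reads counted 1 by 1. In JEKO1 it stood at 1.72, 1.12 and 4.77 normalized counts with DMSO and at 9.53, 6.88 and 17.8 with IB, from 8 and 35 reads. All IB libraries lay above all DMSO libraries. The pooled ratio was 4.40 (95% counting interval 2.00 to 10.97). edgeR without a filter on low counts, chosen after the data were seen, gave an adjusted p of 0.00194, where 31.1% of genes were called, and 0.0665 without IB replicate C. In MAVER, CCL3 stood at 6.45, 0.953 and 3.91 with DMSO and at 0 in all 3 IB libraries, with 13 reads against none. The DMSO level was 3.65 times a floor of 3 reads over the IB group, which is no lower limit on the fold. The 13 reads have a 95% counting interval of 6.92 to 22.2, and 0 reads reach up to 3.69. By edgeR without filter, CCL3 was lower with IB (adjusted p = 0.0125, where 14% of genes were called).

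That MAVER call for CCL3 did not hold without DMSO replicate A (edgeR adjusted p = 0.104) or without IB replicate A, B or C (0.0605, 0.0539 and 0.0517). With KPT, CCL3 stood at 3.59, 0 and 0, and with PU at 2.43, 2.83 and 0. Both groups overlapped DMSO. The edgeR adjusted p without filter was 0.167 for KPT and 0.400 for PU, and the read ratio of DMSO to PU was 1.99 (95% counting interval 0.738 to 5.89).

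CCL4, or MIP-1 beta, which is often secreted together with CCL3, did not follow it in JEKO1. It stood at 12.1, 10.1 and 18.1 with DMSO and at 14.3, 8.03 and 20.9 with IB, and the libraries of the groups overlapped. The difference was 0.04 ± 0.37 (SE, n = 3 per group, 95% interval -0.72 to 0.81, limma adjusted p = 0.937). The interval spans both directions, and whether the CCL3 and CCL4 differences in JEKO1 differ from each other was not tested.

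In MAVER, CCL4 was below the filter, at 6.45, 6.67 and 6.25 with DMSO and at 0.963, 0 and 0 with IB. KPT libraries held 0, 1.19 and 1.25, and PU libraries 2.43, 3.40 and 6.52. The IB and KPT libraries lay under every DMSO library and the PU libraries overlapped them. The reads were 22 with DMSO, 1 with IB, 2 with KPT and 15 with PU, so that DMSO was 18.5 times IB (95% counting interval 2.99 to 764), 7.09 times KPT (1.74 to 62.2) and 1.57 times PU (0.780 to 3.26). edgeR without filter gave adjusted p = 0.00256 for IB, 0.0133 for KPT, where 37% of genes were called, and 0.470 for PU, where 38.8% were called. The KPT call was lost without KPT replicate A (0.0581). PU was above IB for CCL4 at an edgeR adjusted p of 0.0135, where 38.1% of genes were called, and this was lost without PU replicate C (0.0817), IB replicate B (0.0623) or IB replicate C (0.0660).

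CCL3 and CCL4 each have near-identical gene copies. CCL3L1, CCL3L3, CCL4L1 and CCL4L2 were listed at 0 in every library, and the treatment of reads shared between copies is not stated in the sources, so both levels are uncertain. The other chemokines gave little to set beside them. Of 27 listed, 1 passed the filter in each table and neither was called: CXCL16 in JEKO1, at 35.7 ± 4.86 with DMSO and 31.8 ± 5.75 with IB (SD, n = 3), and CCL5 in MAVER, at 28.2 ± 6.90 with DMSO, 25.01 ± 6.05 with IB, 33.8 ± 6.84 with KPT and 29.7 ± 7.71 with PU.

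The most upstream of 3 CCL3 windows in RefSeq is shown so that its letters can be set beside those of CCL22. It lies on the minus strand of GRCh38.p14 at chr17:36090144-36090393, and no capitals appear because no NF-kB match was found in it.
CCL3: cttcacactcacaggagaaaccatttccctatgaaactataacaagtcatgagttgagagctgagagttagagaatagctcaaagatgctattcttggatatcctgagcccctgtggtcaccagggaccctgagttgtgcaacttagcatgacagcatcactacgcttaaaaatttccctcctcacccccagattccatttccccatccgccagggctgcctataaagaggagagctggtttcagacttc
It held 3 matches to the NFAT core, read as TTTCC on the strand shown, at 227, 77 and 52 bases before the start. It held none to AP-1, the GC box or the EGR motif.

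TNF and LTB were listed at 0 in all 18 libraries. LTA was listed at 0 in all 6 JEKO1 libraries and had few reads in MAVER: 2.76, 7.62 and 3.13 normalized counts with DMSO, 4.82, 2.23 and 5.31 with IB, 1.79, 2.38 and 6.23 with KPT, and 8.51, 1.70 and 5.58 with PU. The 4 groups overlapped throughout. Read ratios to DMSO were 0.950 for IB (95% counting interval 0.406 to 2.17), 0.827 for KPT (0.304 to 2.08) and 0.995 for PU (0.461 to 2.16). Changes within these intervals were not detectable with so few reads.

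These zeros were not read as absence of the transcripts, because genes beside them that most cells use were listed at 0 as well. LTA, TNF and LTB lie next to each other in the major histocompatibility complex. The 20 protein-coding genes on each side were taken in RefSeq order, a window chosen after the values were seen. Of these 40 neighbours, 33 were listed at 0 in every JEKO1 library and 27 in every MAVER library, against 25.7% and 25.5% of 17676 other protein-coding genes. DDX39B, an RNA helicase of mRNA export, CLIC1, a chloride channel protein, and ABHD16A, a lipase, were at 0 in all 18 libraries. CSNK2B, the regulatory subunit of casein kinase 2, was at 0 in JEKO1 and had a mean of 70.0 normalized counts in MAVER, and PRRC2A stood at 0 and 36.7. HLA-B and HLA-C in the same window had means of 1177 and 1837 in JEKO1 and 2290 and 432 in MAVER. TNF, LTB and, in JEKO1, LTA are therefore given only as listed at 0, and why this stretch is listed so was not tested. The LTA reads in MAVER come from the same stretch, and whether they are complete was not tested.

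**Figure D3:**
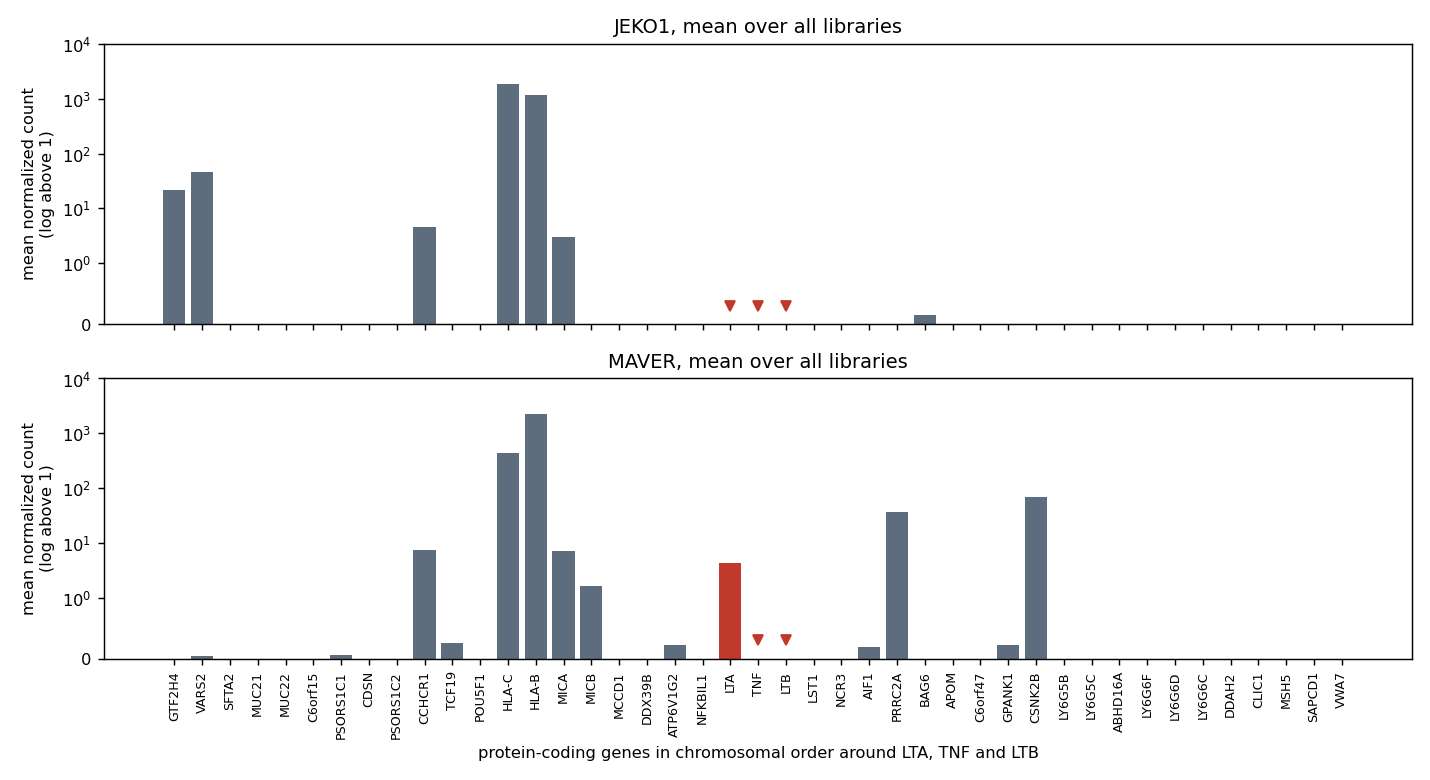
Mean normalized count over all libraries of a table (vertical axis, logarithmic above 1) for LTA, TNF and LTB (red) and the 20 protein-coding genes on each side, in chromosomal order, for JEKO1 (top) and MAVER (bottom). Most bars are missing in both lines, 33 of 40 neighbours in JEKO1 and 27 in MAVER being listed at 0, while HLA-B and HLA-C stand high.

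Other TNF family ligands lie elsewhere in the genome and could be tested. In JEKO1, 2 of 5 rose with IB and 1 fell. TNFSF9, the ligand of 4-1BB, went from 80.7 ± 6.68 to 273 ± 14.9 normalized counts (SD, n = 3), a difference of 1.75 ± 0.11 (SE). CD70, the ligand of CD27, rose by 1.29 ± 0.08 and TNFSF8, the ligand of CD30, fell by 1.08. In MAVER, 1 of 5 changed with IB, TNFSF9, at -0.63 ± 0.10. With KPT 2 of 5 rose, TNFSF10, the death ligand TRAIL, by 0.99 and TNFSF9 by 0.36. With PU TNFSF10 rose by 0.93 and TNFSF9 by 0.24, while CD70 changed by -0.15. The median of the 5 was -0.36 in JEKO1 and -0.09, 0.31 and 0.20 with IB, KPT and PU in MAVER, where the medians over all genes lay within 0.01 of 0. The called shares of this list were 60% in JEKO1 and 20%, 40% and 60% with IB, KPT and PU in MAVER. The shares over all genes were 42%, 19.8%, 55.9% and 55.1%, so apart from JEKO1 the list was near or under them.

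IL10, the cytokine that restrains macrophages and supports B cell survival, stood higher in the JEKO1 libraries labelled IB. DMSO libraries held 0.862, 0 and 0 normalized counts, 1 read in all, and IB libraries 5.56, 11.5 and 10.5, 27 reads in all. The groups did not overlap. The read ratio was 27.1, with a 95% counting interval of 4.47 to 1111, and edgeR without filter gave an adjusted p of 4.15e-05. Leaving out any 1 of the 6 libraries moved that value between 5.44e-05 and 0.00129. The T cell list, whose cells can also secrete IL10, summed to 14.7 to 21.2 normalized counts in JEKO1 DMSO and 23.8 to 29.8 with IB. None of its 7 markers averaged 10, CD2 was at 0, and the others did not move together. CD4 averaged 4.01 with DMSO and 9.16 with IB, CD28 1.32 and 5.28, and CD3D 0.61 and 2.19. CD3G averaged 7.42 and 6.46, CD3E 3.31 and 3.30, and CD8A 1.03 and 0.91. The part of this list in the IL10 value was not tested. In MAVER, IL10 had 4 reads over 12 libraries, 2, 1 and 0 with DMSO and 1 with PU replicate A, so no fold is given there and it was too low to judge.

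The RefSeq window before the most upstream of 3 IL10 starts, on the minus strand at chr1:206772495-206772744 (GRCh38.p14), is shown because IL10 went from near 0 to a counted level and its window, like that of CCL3, has no NF-kB match.
IL10: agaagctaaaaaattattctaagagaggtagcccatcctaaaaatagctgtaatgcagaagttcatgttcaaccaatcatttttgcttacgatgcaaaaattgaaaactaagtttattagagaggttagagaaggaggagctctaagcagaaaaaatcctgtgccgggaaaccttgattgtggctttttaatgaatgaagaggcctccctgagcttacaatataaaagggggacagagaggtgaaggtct
It held 1 match to the NFAT core, 84 bases before the start, and none to AP-1, the GC box or the EGR motif. A window at another IL10 start held an AP-1 match, TGAGTCA, 69 bases before that start.

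Among genes listed with IL10 receptor signalling, 2 of 6 rose and 1 fell in JEKO1 with IB. The list also holds SOCS1, BCL3 and IL4R, so its counts are no measure of IL10 signalling. BCL3, an atypical IkB protein that IL10 is known to induce in macrophages, rose by 1.90 ± 0.10 (SE), STAT3 rose by 0.31 ± 0.07, and the kinase JAK1 fell by 0.27. In MAVER, 2 rose and 1 fell of 6 with IB, 4 rose and 2 fell with KPT, and 2 rose with PU. Over all genes 42%, 19.8%, 55.9% and 55.1% were called in these comparisons, against 50%, 50%, 100% and 33.3% of these 6 genes. With IB in MAVER, JAK1 rose by 0.45 and IL4R by 0.48, and BCL3 fell by 0.45. With KPT, STAT3 rose by 0.69 and TYK2 by 0.52, while BCL3 fell by 1.06 and IL4R by 0.62. The IL10 receptor gene IL10RA rose by 0.91 in JEKO1 with IB. In MAVER it fell by 0.47 with IB and rose by 0.86 with PU.

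TGFB1 was well measured in every library. In JEKO1 it stood at 600.3, 554 and 601 normalized counts with DMSO and at 971, 851 and 988 with IB. The groups did not overlap, and the difference was 0.68 ± 0.07 (SE, n = 3 per group, limma adjusted p = 6.45e-08). In MAVER it stood at 675, 775 and 770.0 with DMSO, at 746, 688 and 576 with IB, at 793, 815 and 799.9 with KPT, and at 384, 412 and 507 with PU. The PU libraries lay under all others and the KPT libraries above all others, while IB and DMSO overlapped.

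Of the 3 MAVER treatments, PU alone moved TGFB1 past the threshold. It fell by 0.77 ± 0.08 (SE, n = 3 per group, limma adjusted p = 7.27e-11), from a mean of 740 ± 56.4 to 435 ± 64.5 (SD). The IB difference was -0.15 ± 0.08 (95% interval -0.31 to 0.01, limma adjusted p = 0.206). The KPT difference was 0.12 ± 0.08 (-0.04 to 0.28, limma adjusted p = 0.208), although the libraries did not overlap. In order from low to high the groups ran PU, IB, DMSO and KPT, and neither IB against DMSO nor DMSO against KPT was called.

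PU was lower than IB by a difference of -0.63 (limma adjusted p = 1.30e-08) and lower than KPT by -0.89 (1.63e-12). KPT was higher than IB by 0.27 ± 0.08 (limma adjusted p = 0.00436), and this call was lost in limma without a mean-variance trend (0.0740) and without IB replicate C, where the difference was 0.16 (0.0917). The IB response differed between the lines by 0.82 ± 0.11 (JEKO1 minus MAVER, SE, 12 libraries, limma adjusted p = 1.04e-06).

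The TGFB1 promoter window is shown beside those of the chemokines because its letters differ from theirs. The 250 bases lie on the minus strand of GRCh38.p14 at chr19:41353923-41354172, with the NF-kB match in capitals.
TGFB1: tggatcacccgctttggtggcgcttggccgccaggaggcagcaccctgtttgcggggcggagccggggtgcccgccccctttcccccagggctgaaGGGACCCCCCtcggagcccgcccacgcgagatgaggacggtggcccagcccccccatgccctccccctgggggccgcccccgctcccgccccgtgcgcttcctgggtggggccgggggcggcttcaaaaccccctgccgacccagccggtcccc
The NF-kB match begins 154 bases before the start. The window also held 6 matches to the GC box, 2 to the EGR motif, both of which overlap a GC box match, and 1 to the NFAT core. Of the printed windows, those of CCL22, CCL3 and IL10 held no GC box.

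Release of TGFB1 from its latent complex depends on anchor proteins and proteases. LRRC32 (GARP), which tethers latent TGFB1 to the cell surface, had the largest difference among the listed genes in JEKO1, from 2.45 ± 1.66 to 258 ± 119 normalized counts with IB (SD, n = 3), a difference of 6.24 ± 0.33 (SE, limma adjusted p = 7.79e-12). It passed the filter there through the IB libraries. In MAVER it stayed at 0 to 2.12 in every library. NRROS, the anchor known from myeloid cells, rose by 1.08 ± 0.07 in JEKO1 and fell by 0.41 with IB, by 0.50 with KPT and by 0.77 with PU in MAVER. FURIN, which cleaves the TGFB1 precursor, rose by 0.56 with PU.

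The list of processing and mRNA decay genes had 8 of 15 members higher and 5 lower in JEKO1. In MAVER it had 2 higher and 2 lower of 14 with IB, 6 and 3 with KPT, and 4 and 4 with PU. The called shares were 86.7%, 28.6%, 64.3% and 57.1%, against 42%, 19.8%, 55.9% and 55.1% of all genes, so those with KPT and PU lay near the share over all genes. ADAM17, the protease that sheds TNF, fell by 0.75 in JEKO1 and rose by 0.30 with IB and 0.77 with PU in MAVER. ZFP36L1, which promotes decay of mRNAs with AU-rich elements, rose by 1.0003 in JEKO1 and fell by 0.30 with IB and 0.86 with PU. With KPT, its relative ZFP36L2 rose by 0.86, the endonuclease ZC3H12A rose by 0.94 and the stabilising protein ELAVL1 fell by 0.49. The list medians were 0.17 in JEKO1 and 0.04, 0.15 and -0.06 with IB, KPT and PU.

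**Figure D4:**
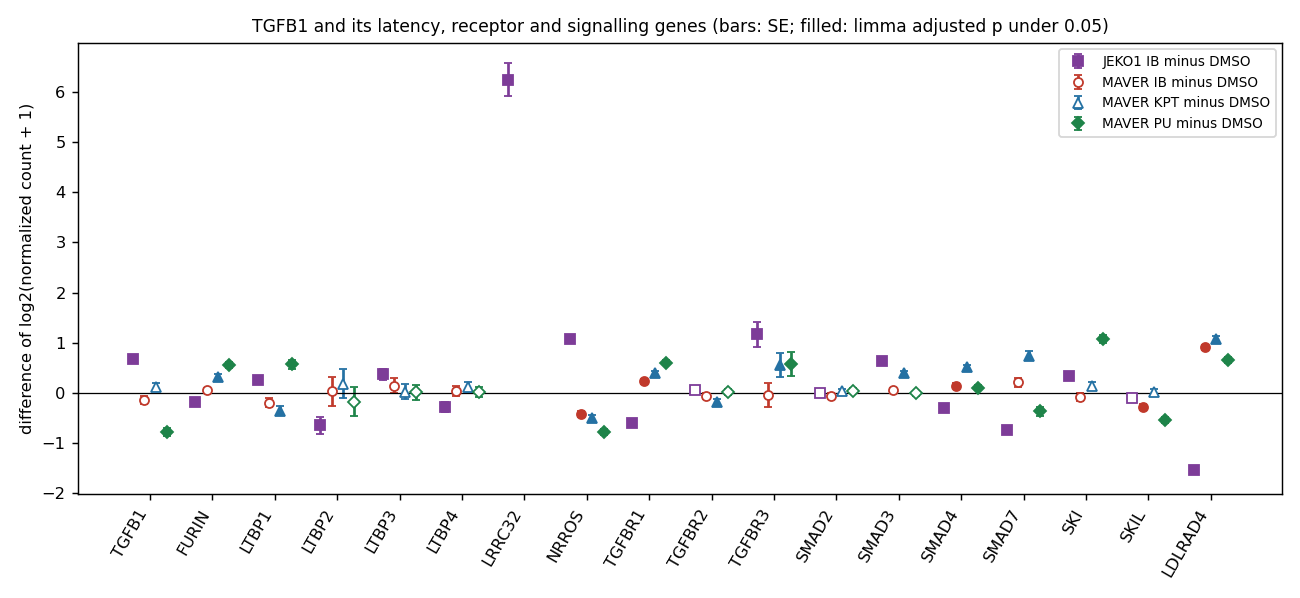
Differences of log2(normalized count + 1) from DMSO for TGFB1 and genes of its latency, receptors and signalling, with SE bars and filled symbols where the limma adjusted p was under 0.05, for JEKO1 IB and the 3 MAVER treatments. LRRC32 stands at 6.24 in JEKO1 and has no MAVER symbol because it was below the filter there.

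Receptors of the 8 factors were tested in both lines. In JEKO1, 4 of 9 rose and 1 fell: TGFBR3 rose by 1.17, IL10RA by 0.91 and the TNF receptor TNFRSF1A by 0.83, and TGFBR1, the signalling kinase of the TGF-beta receptor, fell by 0.59. In MAVER, 2 of 8 rose and 1 fell with IB, 3 rose and 2 fell with KPT, and 6 rose and none fell with PU. The called shares, 55.6% in JEKO1 and 37.5%, 62.5% and 75% in MAVER, stand against 42%, 19.8%, 55.9% and 55.1% of all genes, with few genes behind each. TGFBR1 rose by 0.24, 0.39 and 0.60 with IB, KPT and PU. TNFRSF14, a receptor of LTA, rose by 0.47, 0.68 and 0.80. The receptor list had a median of 0.59 with PU, where the median over all genes was 0.01.

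TGF-beta signalling and target genes did not move in 1 direction. In JEKO1, 8 of 17 rose and 3 fell, with SMAD3 at 0.63, ID2 at 0.62, the inhibitory SMAD7 at -0.74 and LDLRAD4, which restrains TGF-beta signalling, at -1.54. In MAVER, 4 of 15 rose and 2 fell with IB, 8 rose and 3 fell with KPT, and 4 rose and 5 fell with PU. The called shares were 64.7%, 40%, 73.3% and 60%, against 42%, 19.8%, 55.9% and 55.1% of all genes. LDLRAD4 rose in MAVER by 0.91 with IB, by 1.07 with KPT and by 0.66 with PU. The co-repressor SKI rose by 1.08 with PU while its relative SKIL fell by 0.54.

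Transcription factors that are known to act downstream of the B cell receptor were counted from lists of their own. Of 13 NF-kB subunit and feedback genes, 12 rose and none fell in JEKO1 with IB, with a median of 1.56. In MAVER, 2 rose and 2 fell with IB, 7 fell with KPT and 10 fell with PU, with medians of -0.05, -0.33 and -0.54. The called shares were 92.3% in JEKO1 and 30.8%, 53.8% and 76.9% in MAVER, against 42%, 19.8%, 55.9% and 55.1% of all genes, so the share with KPT was under that of all genes. NFKB2 stood at 2.10 in JEKO1 with IB, and BIRC3 at 0.60 in MAVER with IB. With KPT, NFKB2 stood at -0.75 and BIRC3 at -0.48, and with PU at -0.79 and -0.81. CCL22 rose in JEKO1, fell with IB and KPT in MAVER and showed no called change with PU. Whether these genes and CCL22 are linked was not tested. Of the NFAT and calcium-dependent regulators, 6 of 12 rose and 1 fell in JEKO1, with EGR1 at 3.52, EGR2 at 4.29 and NFATC1 at 1.04. In MAVER, 1 of 10 rose and 2 fell with IB, 5 fell with KPT, and 2 rose and 3 fell with PU. The called shares were 58.3% in JEKO1 and 30%, 50% and 50% in MAVER, those with KPT and PU being under the 55.9% and 55.1% of all genes. EGR1 fell by 4.74 with IB and by 2.62 with KPT. These lists were chosen with earlier results of the same libraries known and are no independent evidence of a direction.

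The genes whose levels ran most like a member were named by Pearson's r of log2 levels among genes that averaged 50 or more. Over the 12 MAVER libraries, CCL22 was most like NSF (r = 0.949), PRPF3 (0.948) and ITFG1 (0.935), and TGFB1 was most like PLEKHO1 (0.967), KHSRP (0.966) and SLC4A2 (0.961). Over the 6 JEKO1 libraries, CCL22 was most like MAP1B, SCAMP5 and ZC3H12A (all 0.999), TGFB1 like SSRP1 (0.997), VEGFA (0.996) and ADCY3 (0.996), and CCL4 like EIF3IP1 (0.982), DRAM2 (0.980) and GTF2F2 (0.966). The highest of 9727 to 9728 values over 6 libraries in 2 groups is high by selection, and the libraries share their treatments and scaling.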

How the data were processed

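The authors deposited normalized counts (a signal of at least 0 for each gene) in 1 table per cell line. Per the labels' protocols, RNA from stranded libraries was sequenced as single-end reads, aligned with STAR, quantified with Cufflinks and tested with DESeq2, and the submitters' processing notes name FastQC and hg19. No source used here names the counter, its strand setting or the annotation. Dividing each value by its library's smallest positive value gave whole reads (within 0.01) for 100% of values, at 5374226 to 17040599 reads per library. Each table was tested on its own.

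limma 3.58.1 in R 4.3.3 (lmFit, eBayes with trend) was run on log2(normalized count + 1), keeping genes that averaged 10 or more, with the 4 MAVER groups in 1 fit. The difference between lines used 12 libraries. edgeR 4.0.16 and DESeq2 1.42.0 on recovered reads were alternatives, calling 4923 and 4076 genes in JEKO1. The code was tested on simulated data. Pairs of replicates differed by a chi-square of 1.39 to 4.92 per degree of freedom, so none was counted as a copy. Genes below the filter are given with read ratios and exact conditional intervals (95%), and with edgeR without filter, chosen after the data were seen. Of the lists, up to 4 called genes with the smallest p per comparison are named, and all 8 members always. Motifs were searched in RefSeq windows of 250 bases. The members and lists were chosen with earlier results of these data known. Of the gene names, 28 were altered to dates and are not named.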

Additional observations from a re-analysis of the deposited data

Results flagged for a closer look

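The response to IB differed between JEKO1 and MAVER for 5 of the 8 genes by a test of the difference itself over 12 libraries. For CCL22 the JEKO1 difference minus the MAVER difference was 5.98 on the log2 scale and for TGFB1 it was 0.82. Both were called by limma, where 41.3% of genes were called. CCL22 passed the filter through libraries in which it was high, JEKO1 IB and MAVER DMSO and PU. Without the filter, limma also called CCL22 (adjusted p = 5.81e-10). For the genes below the filter, edgeR without a filter on low counts was chosen after the data were seen. It gave adjusted p = 6.09e-05 for CCL3, 0.00145 for CCL4 and 0.00700 for IL10, where 30.4% of genes were called. The IL10 value was 0.103 without MAVER DMSO replicate A, and IL10 had 3 reads in MAVER DMSO and none with IB. Where a gene rose in JEKO1 and fell in MAVER, as CCL22 did, exchanged JEKO1 labels cannot be told apart from opposite responses of the lines. CCL4 was not called in JEKO1 (0.04 ± 0.37, SE, limma adjusted p = 0.937). TGFB1 was not called in MAVER with IB (-0.15 ± 0.08, limma adjusted p = 0.206). Each JEKO1 direction holds only for the labels as given.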

How the results depend on the processing

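Counts of all genes called stayed within 1.5 times the reported ones in every alternative run. The genes called among the 8 moved with the filter. With no filter, limma and edgeR each called 4 in JEKO1 (2 reported), 3 in MAVER with IB (1 reported), 2 with KPT (1 reported) and 5 for the difference between lines (2 reported). For PU against IB both called 3 (2 reported), and for PU against KPT limma called 3 and edgeR 2 (2 reported), CCL4 having adjusted p = 0.00918 and 0.101. A minimum mean of 50 left 1, 0, 0 and 1, and 1 for PU against IB and for PU against KPT (2 reported each), because CCL22 was then not tested. For KPT against IB (2 reported) the count was 1 with that minimum, without trend, with edgeR, with edgeR without filter, with DESeq2 and with the groups fitted alone, and 1 to 2 leaving out a replicate. Leaving out a replicate, the CCL4 difference in JEKO1 ran from -0.26 to 0.38 and changed sign 3 times: it was -0.26 without IB replicate C (limma adjusted p = 0.646), -0.00776 without DMSO replicate A (0.992) and -0.13 without DMSO replicate B (0.828). The replicate letter as a block gave CCL22 3.67 in JEKO1, called 5507 genes there (4879 reported) and changed no call among members past the filter. The letters were not taken as pairs because the labels do not say that a letter marks a shared culture or day. Deviations of libraries with the same letter correlated at r = -0.0918 to 0.118 over 21 pairs. Libraries with different letters were not compared, so these values cannot show whether pairing is absent. Few reads limit CCL3, LTA, IL10 and, in MAVER, CCL4, whose reads numbered 0 to 35 per group. For LTA, whether depth or the listing of its stretch of genes lies behind this was not tested.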

Other observations

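Other cytokine and growth factor genes that passed the filter numbered 8 in JEKO1 and 9 in MAVER. In JEKO1 with IB, 4 rose and 1 fell, against 42% of all genes called. VEGFA, the vascular growth factor, rose by 1.34 ± 0.10 (SE), HBEGF, a ligand of the EGF receptor, by 0.998 and IL32 by 0.55, while IL16, a chemoattractant for CD4+ cells, fell by 0.41. In MAVER with IB, IL16 rose by 0.44, HBEGF fell by 0.45 and VEGFA fell by 0.29. With PU, IL16 rose by 1.08, the macrophage growth factor CSF1 rose by 0.93 and VEGFA fell by 0.41. With KPT, 4 of 9 rose and 1 fell, about the 55.9% called over all genes. IL23A rose by 1.08, HBEGF by 0.83 and MIF by 0.34, and FLT3LG fell by 0.56. The called shares with IB and PU in MAVER were 33.3% and 44.4%, against 19.8% and 55.1%.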
